A study of Mus musculus with 79 samples.

Results

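Liver of wild-type (WT) mice that had breathed 6% oxygen for 4 h, from circadian time (CT) 16 to CT20, was compared with liver of WT mice that had breathed 21% oxygen over the same hours. The libraries were taken by their labels, 4 at each oxygen level, which makes 8 of the 79 libraries of the series. All 8 mice were C57BL/6, 3 months old, and had been moved from a light-dark cycle into constant darkness 2 days earlier. CT counts hours of the internal day of an animal in the dark, and CT16-20 falls in the subjective night, when mice are active. The gas flowed into a sealed cage, and controls received synthetic air in the same kind of cage, so both groups shared the cage, the gas flow and the darkness. Tissue was frozen directly after the exposure, and each value is from a whole piece of liver. Per the series design text, the replicates of a group are separate mice. To place the response, it was set beside that of WT liver in constant darkness at CT4-8 (4 mice at each oxygen level), of Per1,2 double knock-out (KO) liver in constant darkness at CT16-20 (4 mice at 21% and 3 at 6%) and of WT liver under a light-dark cycle at zeitgeber time (ZT) 16-20 (4 mice at each level). Those mice had the same strain label, age, exposure time and gases, and the labels do not say whether the KO acts in all cells.

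Cells sense oxygen through prolyl hydroxylases, encoded by Egln1, Egln2 and Egln3, which mark the alpha subunits of the hypoxia-inducible factors (HIFs), encoded by Hif1a and Epas1, for destruction while oxygen is plentiful. When oxygen falls, the alpha subunits accumulate as protein, pair with the product of Arnt and bind DNA at the core ACGTG, which switches on genes of glucose uptake, glycolysis and blood vessel growth. The circadian clock uses relatives of the same protein family: the activators encoded by Arntl (also called Bmal1) and Clock bind CACGTG, which contains the HIF core, and drive their own repressors, the Per, Cry and Nr1d genes. The liver is itself ordered by oxygen, since blood runs from the oxygen-rich portal side of a lobule to the oxygen-poor central vein.

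Total counts ran from 1860734 to 2811220 in the 4 libraries at 21% oxygen and from 2026743 to 2551165 in the 4 at 6% oxygen, and the totals did not separate the groups (exact two-sided permutation p = 0.571, n = 4 and 4). The label liver was borne out by its markers: 12 hepatocyte genes together took 80993 to 97513 CPM (counts scaled to a common library total, with edgeR's TMM factors) at 21% oxygen and 84321 to 100780 at 6%. Of the markers of other cells, 0 of 12 for sinusoidal endothelium, 0 of 12 for Kupffer cells and 0 of 10 measured for stellate cells were called as changed by oxygen in edgeR. At an unadjusted p under 0.05 there were 1, 3 and 2, and DESeq2 called 1, 0 and 0. Estimates above 0 numbered 4, 3 and 6. When CT4-8 at 21% oxygen, replicate a, was left out of the fit, edgeR called 1 endothelial and 2 Kupffer markers lower. It then called 1 stellate marker higher. Lymphocyte markers had at most 37 counts in any of the 8 libraries, and the defining genes Cd3g, Cd8a and Ms4a1 were not listed in the table. The summed erythroid markers, of which only Alas2 was listed, were 122 to 190 CPM at 21% and 200 to 208 CPM at 6%, and did not overlap (exact two-sided permutation p = 0.029, the smallest that 4 against 4 allows, and 0.21 adjusted over 15 library measures); their part in the results below was not tested. In bulk tissue, fewer cells of a type and less RNA per cell cannot be told apart. Actb, the transcript used by the submitters to even out cDNA input, was 1896, 1474, 1061 and 1604 CPM at 21% and 1989, 2097, 1737 and 2183 CPM at 6%, and was not called (log2 fold change 0.41 ± 0.15 (SE), adjusted p = 0.090).

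Low oxygen changed 836 of the 8507 genes tested, or 9.83%, at a Benjamini-Hochberg adjusted p under 0.05 in edgeR's quasi-likelihood test, hereafter called. Of these, 449 rose (5.28%) and 387 fell (4.55%). The median log2 fold change over all tested genes was -0.0026. TMM scaling sets it near 0, so the changes below are relative to the other genes, and a shift of most genes together could not be seen. A log2 fold change over 1 was reached by 249 of the called rises, and one under -1 by 194 of the called falls, while changes over 2 (56 genes) were more common than changes under -2 (26 genes). The 4 mice at 6% did not overlap with the 4 at 21% in 735 of the 836 called genes. Over all 8507 tested genes, which include these, 1527 did not overlap (17.9%). Calls and overlap come from the same values, so the 1 does not support the other. The spread was estimated over all 16 WT libraries in constant darkness, one of which, CT4-8 at 21% oxygen, replicate a, stood apart from its group. Leaving that library out raised the count to 1358 called genes, 830 of the 836 among them, and leaving out any of the 8 compared libraries gave 585 to 710.

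**Figure D1:**
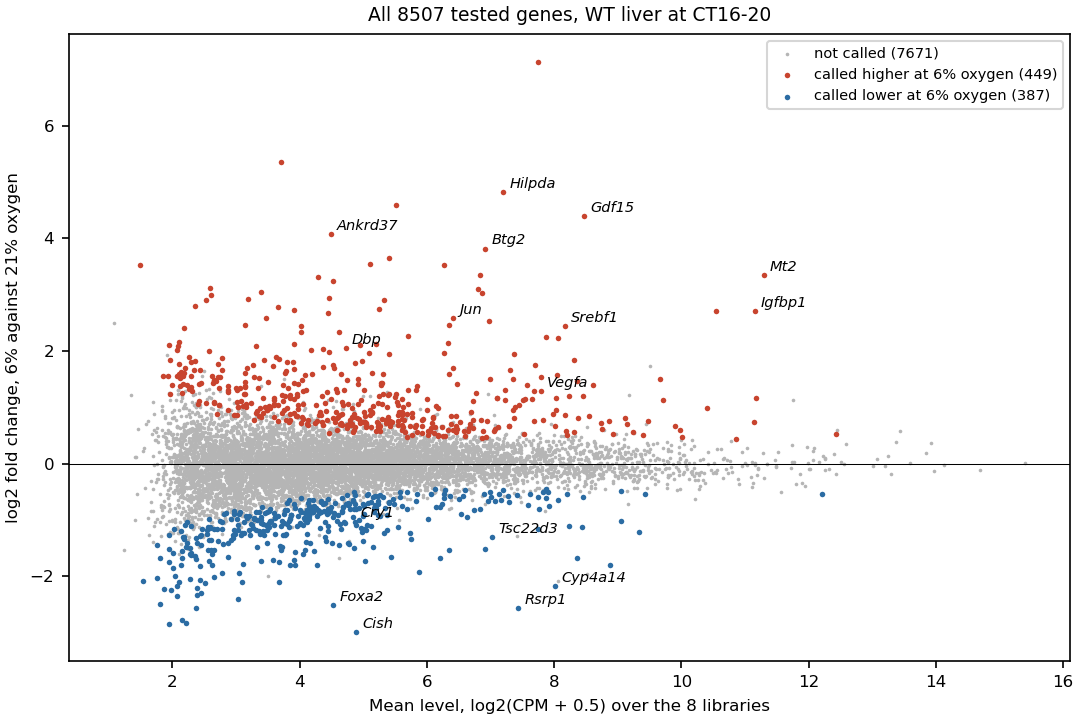
Each point is 1 of the 8507 tested genes, with its mean level as log2(CPM + 0.5) over the 8 libraries on the horizontal axis and its log2 fold change at 6% against 21% oxygen on the vertical axis. The 449 called rises (red) reach further from 0 than the 387 called falls (blue), with Hilpda at 4.82 and Cish at -3.00.

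Several of the largest rises were of genes known as HIF targets. Hilpda, which encodes an inhibitor of fat breakdown at lipid droplets, stood at 8.70, 7.34, 13.0 and 10.2 CPM at 21% oxygen and at 358, 252, 290 and 230 CPM at 6%. Every mouse at 6% was far above every control, with a log2 fold change of 4.82 ± 0.30 (SE, adjusted p = 1.2e-09). Ankrd37, an ankyrin-repeat gene widely used as a marker of HIF activity, went from 1.09, 4.75, 1.80 and 1.86 CPM to 51.2, 34.9, 44.1 and 36.0 CPM (log2 fold change 4.07 ± 0.50, adjusted p = 4.4e-05). Its gene model overlaps Lrp2bp and Ufsp2, and without a stated strand setting reads of overlapping genes cannot be told apart. The windows from 250 bases before to 50 bases after the transcription start of these genes are shown because both hold the HIF core. They are from RefSeq on GRCm38.p6 (mm10), at chr6:29272376-29272675 on the plus strand and chr8:45999801-46000100 on the minus strand, printed 5′ to 3′ on the strand of the gene with ACGTG in capitals.
Hilpda: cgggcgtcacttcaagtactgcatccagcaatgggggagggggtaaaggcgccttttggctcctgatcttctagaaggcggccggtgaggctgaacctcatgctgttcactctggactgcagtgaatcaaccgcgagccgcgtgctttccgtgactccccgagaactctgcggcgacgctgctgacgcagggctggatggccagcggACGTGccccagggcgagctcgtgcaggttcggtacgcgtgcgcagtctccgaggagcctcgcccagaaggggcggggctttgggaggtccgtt
Ankrd37: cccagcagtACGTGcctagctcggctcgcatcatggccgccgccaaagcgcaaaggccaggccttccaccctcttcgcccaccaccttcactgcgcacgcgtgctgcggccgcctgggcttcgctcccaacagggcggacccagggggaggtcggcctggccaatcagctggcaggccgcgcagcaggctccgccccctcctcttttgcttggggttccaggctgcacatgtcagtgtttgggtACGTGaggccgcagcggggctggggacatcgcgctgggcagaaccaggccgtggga
Hilpda holds the letters 1 time and Ankrd37 2 times on the strand shown. The RefSeq table held 2 windows for Hilpda, of which 1 with ACGTG is shown. ACGTG, on either strand, was found in a window of 135 of 343 called rises (39.4%), of 65 of 301 called falls (21.6%) and of 1996 of 6569 tested genes (30.4%). These are the genes that the RefSeq table held, and any 1 window of a gene was enough. A match describes letters, not a bound site.

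Of 24 measured HIF targets outside glycolysis, from a list of 35, 10 rose and 2 fell, with a median log2 fold change of 0.56. Efna1, an ephrin ligand, stood at 22.3, 19.9, 18.04 and 21.4 CPM at 21% and at 235, 189, 156 and 248 CPM at 6% (log2 fold change 3.34 ± 0.50, adjusted p = 0.00067). Cited2, which encodes a protein that competes with HIF alpha for the coactivator p300, was 34.3, 35.8, 37.2 and 39.1 CPM and then 289, 196, 116 and 253 CPM, with no overlap (log2 fold change 2.54 ± 0.29, adjusted p = 9.6e-06). Vegfa, the main growth factor of blood vessels, moved less but evenly, from 129, 149, 120 and 115 CPM to 357, 310, 266 and 326 CPM (log2 fold change 1.29 ± 0.16, adjusted p = 1.3e-05). The 2 listed genes that fell, singled out after their values were seen where the naming rule does not take them, both act in fuel handling. Angptl4, an inhibitor of lipoprotein lipase, fell from 400, 535, 620 and 354 CPM to 188, 223, 311 and 151 CPM (log2 fold change -1.13 ± 0.20, adjusted p = 0.00083). Ppp1r3c, which targets a phosphatase to glycogen, fell by 0.73 ± 0.23 on the log2 scale (adjusted p = 0.046), a call that was lost in 7 of 15 alternative settings.

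The oxygen-sensing genes themselves moved less. Egln3, the most strongly HIF-induced of the 3 hydroxylase genes, rose from 10.9, 10.4, 7.22 and 7.45 CPM to 22.5, 27.2, 27.0 and 30.4 CPM (log2 fold change 1.58 ± 0.19, adjusted p = 8.4e-06). Egln1 rose by a log2 fold change of 0.55 ± 0.17 (adjusted p = 0.037), but this call was lost in 9 of 15 alternatives, with adjusted p up to 0.10. The transcripts of the alpha subunits did not pass the test: Epas1 was 196, 224, 192 and 186 CPM at 21% and 198, 195, 209 and 215 CPM at 6% (log2 fold change 0.03 ± 0.15), and Hif1a was 6.47 to 10.5 CPM against 4.46 to 11.7 CPM (0.12 ± 0.29). For both the groups overlapped. Arnt, their shared partner, had a log2 fold change of 0.64 ± 0.22 (adjusted p = 0.071).

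Genes of glucose uptake and glycolysis were called upward. Of 18 measured genes of glucose uptake, glycolysis and lactate handling, from a list of 28, 7 rose and 0 fell (median log2 fold change 0.61). Slc2a1, the glucose transporter GLUT1, was 15.2, 16.4, 11.5 and 11.6 CPM at 21% oxygen and 40.3, 48.7, 51.6 and 53.8 CPM at 6% (log2 fold change 1.83 ± 0.27, adjusted p = 0.00011). The enzymes further down the pathway changed by smaller amounts: Tpi1 by 0.62 ± 0.15 (adjusted p = 0.012), Ldha, which turns pyruvate to lactate, by 0.59 ± 0.17 (0.023), and Pfkl, the liver phosphofructokinase, by 0.65 ± 0.20 (0.040). The calls of Ldha and Pfkl were lost in 3 and 9 of 15 alternatives. Pdk4, a kinase that inhibits pyruvate dehydrogenase, was 15.8, 38.0, 28.1 and 36.3 CPM at 21% and 66.5, 176, 242 and 38.6 CPM at 6% (2.14 ± 0.49, adjusted p = 0.013). The 6% mice spread over a wide range for this gene, and its call was lost when the fit held only the 8 compared libraries (highest adjusted p over the alternatives 0.095).

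Genes of the fasting response did not move as 1 block. Of 14 measured, 1 rose and 2 fell (median 0.11), beside 5.28% called as rises and 4.55% as falls among all tested genes. Igfbp1, a liver-secreted binding protein that traps insulin-like growth factors, was 321, 530, 877 and 678 CPM at 21% oxygen and 4447, 3721, 4559 and 3095 CPM at 6% (log2 fold change 2.72 ± 0.27, adjusted p = 1.7e-06). Every mouse at 6% was far above every control. Pck1, which catalyses an early step of glucose synthesis, fell by 0.53 ± 0.15 on the log2 scale (adjusted p = 0.026, lost in 4 of 15 alternatives). G6pc, which releases free glucose at the end of that pathway, was 471, 589, 1001 and 534 CPM against 903, 558, 960 and 617 CPM, overlapped between groups and did not pass the test (0.23 ± 0.28, adjusted p = 0.69). Among 12 measured glycogen genes, Ppp1r3g, which promotes glycogen storage after feeding, rose from 12.5, 33.7, 28.9 and 24.2 CPM to 233, 112, 302 and 179 CPM (3.03 ± 0.37, adjusted p = 5.5e-05).

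**Figure D2:**
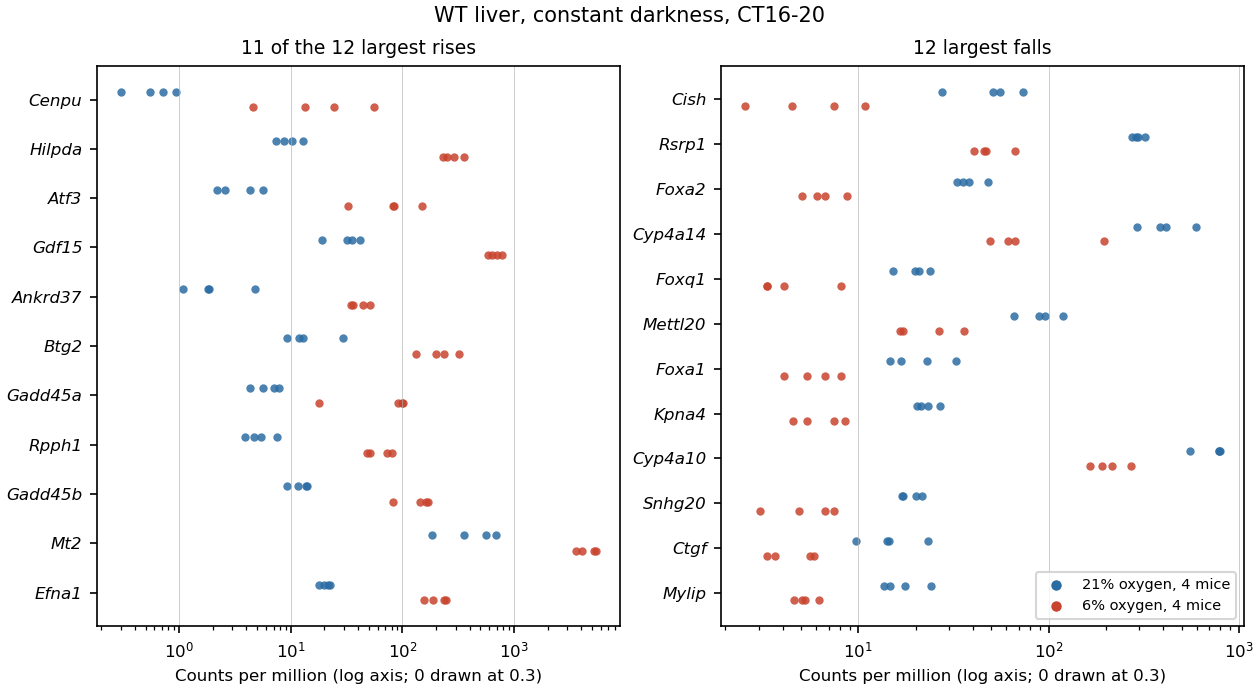
CPM in each of the 8 mice, on a log axis, for 11 of the 12 largest rises and for the 12 largest falls whose groups do not overlap, taken from called genes averaging 10 CPM or more. Every 6% mouse (red) lies on 1 side of every 21% mouse (blue), by design of the choice, and the red points of Gadd45a and Cyp4a14 include 1 mouse apart from the other 3.

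Immediate early genes, whose transcription is switched on within minutes of many stimuli, had the largest share of called rises among the lists described. Of 19 measured, from a list of 26, 15 rose and 0 fell, all 19 estimates were above 0, and the median log2 fold change was 1.65. Jun, a subunit of the factor AP-1, was 22.3, 27.2, 19.8 and 27.0 CPM at 21% oxygen and 186, 178, 99.4 and 116 CPM at 6% (2.59 ± 0.22, adjusted p = 3.7e-08). Atf3, a stress-induced repressor, was 4.35, 2.59, 2.16 and 5.59 CPM and then 81.5, 151, 32.4 and 83.7 CPM (4.59 ± 0.56, adjusted p = 8.8e-05). Btg2, an antiproliferative gene, was 9.24, 12.9, 11.9 and 29.3 CPM and then 237, 324, 133 and 201 CPM (3.82 ± 0.36, adjusted p = 2.5e-06). In all 3 genes the groups lay apart, with replicate c of the 6% group the lowest of its group. Maff (2.91 ± 0.26), Nr4a1 (2.74 ± 0.33), Klf4 (2.12 ± 0.28) and Zfp36 (1.65 ± 0.16), the last encoding a protein that speeds the decay of cytokine mRNAs, were called as well. Of the 10 measured feedback phosphatases and MAP kinase inhibitors 2 rose, Dusp1 (1.26 ± 0.26, adjusted p = 0.0034) and Dusp8 (1.33 ± 0.37, adjusted p = 0.022), the latter losing its call in 4 of 15 alternatives.

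Stress and growth-arrest genes rose in part. Of 15 measured genes of the integrated stress response, the pathway in which slowed translation induces Atf4, 6 rose and 0 fell (median 0.70). Gdf15, a secreted stress hormone of the TGF-beta family (chr8:70629393-70632456, minus strand, mm10), was 32.1, 35.4, 19.1 and 41.9 CPM at 21% oxygen and 782, 704, 639 and 580 CPM at 6%. Its log2 fold change of 4.40 ± 0.24 had the smallest adjusted p of all tested genes, 6.7e-11. Ppp1r15a, which restarts translation, rose by 1.43 ± 0.23 (adjusted p = 0.00022) and Atf4 by 0.59 ± 0.15 (adjusted p = 0.013). Of 20 measured members of the unfolded protein response of the endoplasmic reticulum, 1 rose and 0 fell, beside 5.28% called as rises among all tested genes. It was Herpud1 (0.48 ± 0.14, adjusted p = 0.029, lost in 5 of 15 alternatives), and 4 of 20 estimates were above 0. Heat shock and cold-inducible genes held 1 call in 17, a rise, beside the same 5.28%. It was Cirbp, the cold-inducible RNA-binding protein, which rose from 6.53, 8.63, 2.53 and 5.59 CPM to 30.4, 36.5, 42.4 and 37.0 CPM (2.67 ± 0.32, adjusted p = 9.6e-06). Of 15 measured p53 targets, 5 rose and 0 fell. Gadd45a was 7.07, 7.77, 4.33 and 5.59 CPM at 21% and 98.2, 91.7, 17.9 and 101 CPM at 6%, with replicate c far below the other 3 (3.64 ± 0.49, adjusted p = 0.00017). Gadd45b (3.52 ± 0.36, adjusted p = 6.2e-06) and Ddit4, an inhibitor of the growth kinase mTORC1 (3.10 ± 0.43, adjusted p = 0.00034), rose as well. Of 12 measured genes of the BCL2 family of cell death regulators, 1 rose and 2 fell (median 0.12). Among all tested genes, 5.28% were called as rises and 4.55% as falls. Bok and Mcl1 fell, by 1.55 ± 0.23 (adjusted p = 0.00013) and 1.13 ± 0.21 (adjusted p = 0.00099) on the log2 scale. Bak1 rose (0.98 ± 0.30, adjusted p = 0.037), a call lost in 7 of 15 alternatives. Mcl1 protects cells from death, whereas Bok and Bak1 promote it.

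Genes of lipid synthesis were called upward, and the few calls among genes of fatty acid oxidation were downward. Srebf1, the transcription factor that insulin uses to drive fatty acid synthesis, was 78.3, 101, 81.9 and 96.9 CPM at 21% oxygen and 439, 395, 474 and 636 CPM at 6% (2.44 ± 0.19, adjusted p = 9.4e-09). Of 24 measured genes of fatty acid and triglyceride synthesis, 5 rose and 0 fell (median 0.31). Gpam, the first step of triglyceride assembly, rose by 1.70 ± 0.35 (adjusted p = 0.0034), a call lost when only the 8 compared libraries were fitted, and Acsl3 rose by 1.20 ± 0.25 (adjusted p = 0.0033). The cholesterol list was more uniform: of 23 measured genes, 10 rose and 0 fell, all 23 estimates were above 0 and the median was 0.85. Insig1, which holds the SREBP proteins in the endoplasmic reticulum when sterols are plentiful, was 41.9, 33.2, 35.4 and 49.4 CPM and then 115, 133, 135 and 133 CPM (1.69 ± 0.24, adjusted p = 6.0e-05). The groups lay apart.

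Of 34 measured genes of fatty acid oxidation and PPARalpha targets, 3 fell and 0 rose, beside 9.83% called among all tested genes, 4.55% as falls. Over the list 8 of 34 estimates were above 0 (median -0.21). All 3 encode enzymes outside the mitochondrial oxidation spiral: the omega-hydroxylases Cyp4a10 and Cyp4a14 and the acyl-CoA thioesterase Acot1, each with near-identical relatives between which reads may be split. Cyp4a10 was 554, 796, 790 and 788 CPM at 21% oxygen and 190, 217, 271 and 165 CPM at 6% (-1.80 ± 0.33, adjusted p = 0.0018). Cyp4a14 fell by 2.17 ± 0.58 (adjusted p = 0.032) and Acot1 by 0.81 ± 0.22 (adjusted p = 0.022) on the log2 scale, and these calls were lost in 6 and 4 of 15 alternatives. Ppara itself, the receptor that drives the list, was 153, 186, 211 and 150 CPM against 99.4, 134, 116 and 97.4 CPM, which did not overlap but missed the threshold (-0.65 ± 0.23, adjusted p = 0.080). Leaving out the CT4-8 library that stood apart raised the called falls of this list from 3 to 8. Of 46 measured nuclear subunits of oxidative phosphorylation, 0 were called in edgeR and 0 in DESeq2, with 2 at an unadjusted p under 0.05.

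**Figure D3:**
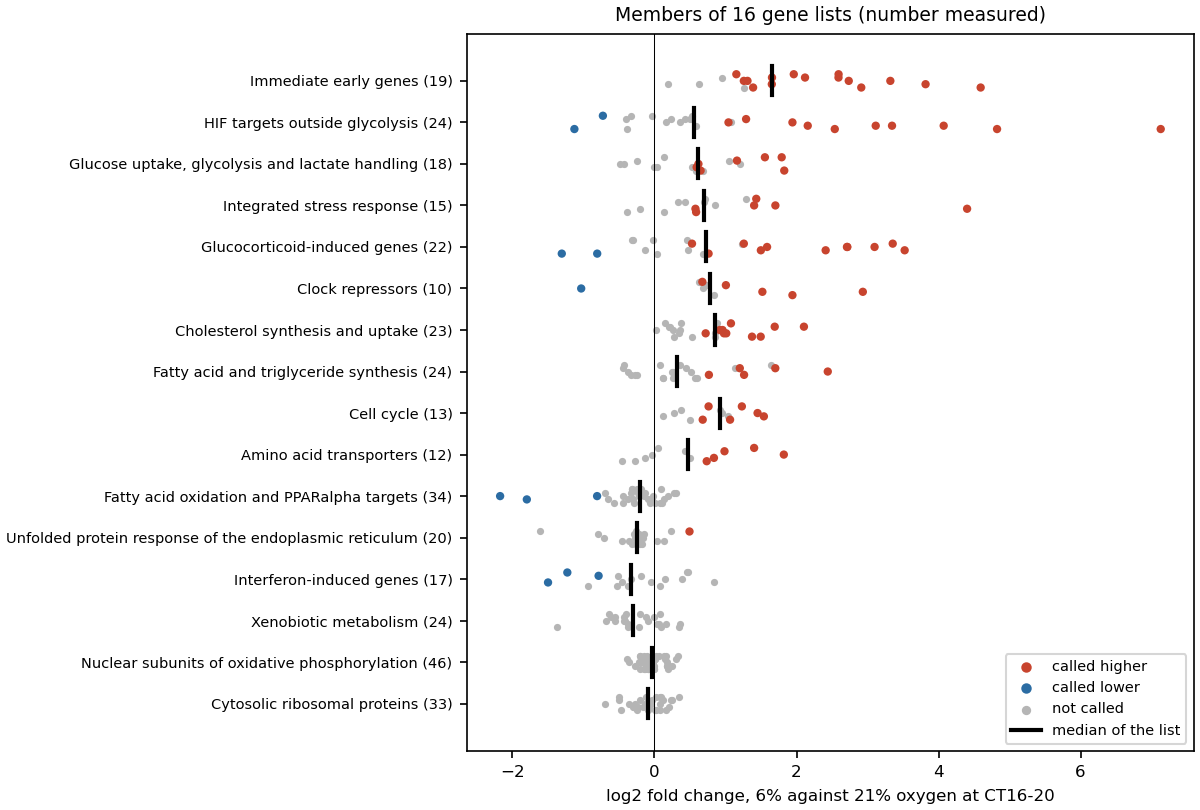
Each point is the log2 fold change at 6% against 21% oxygen of 1 measured member of 16 gene lists, with called rises in red, called falls in blue and the list's median as a bar. Immediate early genes (median 1.65) lie wholly to the right of 0, and the subunits of oxidative phosphorylation (median -0.035) lie within -0.38 and 0.33.

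Hepatocyte identity genes held 2 of the most reduced transcription factors. Foxa2, a pioneer factor that opens liver enhancers, was 47.9, 38.0, 35.4 and 33.1 CPM at 21% oxygen and 8.73, 6.08, 6.65 and 5.07 CPM at 6% (-2.51 ± 0.24, adjusted p = 4.3e-07). Foxa1, its relative, was 32.6, 14.7, 23.1 and 16.8 CPM and then 6.65, 8.11, 5.41 and 4.06 CPM (-1.81 ± 0.30, adjusted p = 0.00035). All 4 mice at 6% were below all controls for both. The other 16 of 18 measured factors were not called, Hnf4a among them (-0.50 ± 0.23, adjusted p = 0.19). Of 25 measured secreted plasma proteins and of 24 measured xenobiotic genes, 0 were called in edgeR or in DESeq2, with 3 and 5 at an unadjusted p under 0.05 in edgeR (median -0.048 and -0.30). Without the CT4-8 library that stood apart, edgeR called 2 of the former higher and 3 of the latter lower. The smallest p in these lists were those of Serpina1c, at 0.35 ± 0.15, and Gsta2, at -0.64 ± 0.25. Of 19 measured pericentral genes 1 rose and 1 fell, the latter Axin2, a feedback target of Wnt signalling (-2.01 ± 0.35, adjusted p = 0.00065), and of 20 measured periportal genes 2 rose and 3 fell, beside 9.83% called among all tested genes. Glul, the classical pericentral marker, had a log2 fold change of 0.02 ± 0.33, and Cyp2f2, a periportal marker, one of -0.01 ± 0.17.

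Of 18 measured genes of growth hormone and insulin-like growth factor signalling, 1 rose, Igfbp1 (above), and 2 fell (median -0.030). Among all tested genes, 5.28% were called as rises and 4.55% as falls. Cish, which encodes a feedback inhibitor of growth hormone and cytokine receptors induced by STAT5, was 73.4, 50.9, 55.9 and 27.5 CPM at 21% oxygen and 10.8, 4.46, 7.48 and 2.54 CPM at 6% (-3.00 ± 0.47, adjusted p = 0.00072). Irs1, an adaptor of the insulin receptor, fell by 1.54 ± 0.31 (adjusted p = 0.0025), a call lost when counts were thinned to equal depth. Of 17 measured interferon-related genes, 3 fell and 0 rose: Stat2 (-1.23 ± 0.19, adjusted p = 0.00015), Irf1 (-1.50 ± 0.33, adjusted p = 0.0068) and Irf9 (-0.79 ± 0.24, adjusted p = 0.042, lost in 9 of 15 alternatives). All 3 are transcription factors that carry the interferon signal. Over the list 6 of 17 estimates were above 0 (median -0.33). Of 23 acute phase genes, 1 was called, beside 9.83% of all tested genes. It was Fga, a chain of fibrinogen, which fell by 1.16 ± 0.27 (adjusted p = 0.011).

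RNA-processing genes changed in both directions. Rsrp1, a gene of arginine- and serine-rich protein type linked to splicing (chr4:134923592-134927671, plus strand, mm10), was 290, 274, 321 and 296 CPM at 21% oxygen and 40.8, 47.0, 66.5 and 45.7 CPM at 6%. This was the tightest of the large falls (-2.56 ± 0.16, adjusted p = 4.2e-10), with narrow groups far apart. Of 25 measured splicing regulators, 3 rose and 4 fell. Srsf5 (0.80 ± 0.14, adjusted p = 0.00067) and Srsf3 (1.30 ± 0.29, adjusted p = 0.0056), which encode splicing factors, rose, while Clk1, a kinase that phosphorylates such factors, fell by 1.11 ± 0.25 on the log2 scale (adjusted p = 0.0050) and Rbm5 by 1.06 ± 0.19 (adjusted p = 0.00076). Among 7 measured nuclear noncoding RNAs, 3 rose. Rpph1, the RNA of ribonuclease P, was 5.44, 3.88, 4.69 and 7.45 CPM and then 79.9, 47.9, 51.1 and 72.5 CPM (3.55 ± 0.25, adjusted p = 1.3e-09). Like Ankrd37, it may share reads with an overlapping gene, since the strand setting was not given. Rmrp, a relative of Rpph1, rose by 2.33 ± 0.30 (adjusted p = 2.1e-05). The third was Malat1, a nuclear RNA with few counts in these libraries. It was 3.81, 3.88, 3.97 and 5.12 CPM and then 7.07, 9.33, 7.48 and 7.10 CPM (0.88 ± 0.27, adjusted p = 0.042), a call lost in 11 of 15 alternatives. As a library measure, the Malat1 level did not overlap between groups (exact two-sided permutation p = 0.029, the smallest possible, and 0.21 adjusted over 15 measures, n = 4 and 4), and its part in these results was not tested. Of 33 measured ribosomal protein genes, 0 were called, and they took 2.80 to 3.32% of counts at 21% and 2.76 to 2.94% at 6% (4 at an unadjusted p under 0.05 in edgeR and 1 called in DESeq2).

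Of 17 measured metallothionein and antioxidant genes, 3 rose and 2 fell (median -0.099). Mt1 and Mt2, near-identical small proteins that bind zinc and copper and respond to both metals and glucocorticoids, were raised: Mt2 was 186, 354, 687 and 560 CPM at 21% oxygen and 4097, 5163, 5419 and 3618 CPM at 6% (3.35 ± 0.43, adjusted p = 0.00014), and Mt1 rose by 2.71 ± 0.31 (adjusted p = 2.1e-05). Slc39a14, a zinc and manganese importer, rose by 0.95 ± 0.16 (adjusted p = 0.00051), and Slc30a10, a manganese exporter, fell by 0.86 ± 0.19 on the log2 scale (adjusted p = 0.0045). Nfe2l2, which encodes the antioxidant regulator NRF2, fell by 0.79 ± 0.22 (adjusted p = 0.026, lost in 4 of 15 alternatives). Of 12 measured amino acid transporters, 5 rose and 0 fell (median 0.47). Slc38a2 was 212, 225, 242 and 178 CPM and then 546, 505, 726 and 490 CPM (1.40 ± 0.15, adjusted p = 2.5e-06). Sds, which breaks serine down to pyruvate, rose from 298, 450, 407 and 540 CPM to 1149, 1388, 1136 and 1118 CPM (1.50 ± 0.25, adjusted p = 0.00051). For both genes the groups lay apart.

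Clock genes were called in both directions. Of 10 measured repressors, 5 rose and 1 fell (median 0.79), and of 2 measured activators 0 were called in edgeR or in DESeq2, with 1 at an unadjusted p under 0.05. Ciart, which represses the Arntl and Clock pair, was 2.72, 4.75, 5.41 and 6.52 CPM at 21% oxygen and 57.8, 28.8, 20.4 and 45.7 CPM at 6% (2.93 ± 0.35, adjusted p = 1.3e-05). Bhlhe40, also called Dec1, a repressor that is both a clock gene and a HIF target, was 74.5, 61.7, 71.1 and 63.4 CPM and then 389, 228, 136 and 288 CPM (1.94 ± 0.24, adjusted p = 1.3e-05). Dbp, an output factor that the clock drives directly, was 9.24, 9.49, 13.0 and 7.92 CPM and then 47.0, 46.2, 23.3 and 51.2 CPM (2.05 ± 0.43, adjusted p = 0.0059). In these 3 genes all 6% mice were above all controls, and replicate c was the lowest of them. The windows around the starts of Ciart and Dbp, which rose, and of Cry1, which fell, are shown because all hold the shared core, with ACGTG in capitals and, where a C precedes it, the whole CACGTG. They are from the same RefSeq table, at chr3:95882179-95882478 on the minus strand, chr7:45704997-45705296 on the plus strand and chr10:85185005-85185304 on the minus strand.
Ciart: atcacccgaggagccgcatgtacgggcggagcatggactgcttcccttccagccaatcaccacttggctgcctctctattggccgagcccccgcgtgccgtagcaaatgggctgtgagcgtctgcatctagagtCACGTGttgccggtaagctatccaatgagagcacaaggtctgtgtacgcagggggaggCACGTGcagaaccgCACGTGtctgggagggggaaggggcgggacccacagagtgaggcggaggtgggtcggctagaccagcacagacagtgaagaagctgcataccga
Dbp: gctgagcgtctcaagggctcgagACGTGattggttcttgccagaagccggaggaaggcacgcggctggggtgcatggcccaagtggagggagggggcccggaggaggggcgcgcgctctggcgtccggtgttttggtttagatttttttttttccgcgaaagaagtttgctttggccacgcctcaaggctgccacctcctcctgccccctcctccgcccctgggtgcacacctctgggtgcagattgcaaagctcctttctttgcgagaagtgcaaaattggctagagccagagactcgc
Cry1: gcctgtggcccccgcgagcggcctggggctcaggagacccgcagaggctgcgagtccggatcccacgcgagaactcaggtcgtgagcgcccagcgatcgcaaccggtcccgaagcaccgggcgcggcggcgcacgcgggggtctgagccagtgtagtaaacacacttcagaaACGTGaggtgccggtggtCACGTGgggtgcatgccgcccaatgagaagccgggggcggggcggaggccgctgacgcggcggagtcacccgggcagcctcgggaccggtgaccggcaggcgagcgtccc
Ciart holds CACGTG 3 times, Dbp holds ACGTG 1 time, and Cry1 holds the core 2 times, 1 of them within the longer motif. CACGTG was found in a window of 57 of 343 called rises (16.6%), of 25 of 301 called falls (8.31%) and of 828 of 6569 tested genes (12.6%).

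The remaining core clock genes moved less. Cry2 rose from 29.9, 21.1, 28.1 and 29.8 CPM to 54.5, 31.6, 71.1 and 61.9 CPM (1.01 ± 0.21, adjusted p = 0.0030), while Cry1 fell from 39.7, 35.4, 43.7 and 34.9 CPM to 19.1, 20.7, 17.0 and 18.3 CPM (-1.03 ± 0.25, adjusted p = 0.010). The paralogs, both repressors of the same activator pair, thus moved in opposite directions without overlap between groups. Nfil3 (0.67 ± 0.18, adjusted p = 0.020) and Nr1d2 (1.52 ± 0.49, adjusted p = 0.049) were called, but lost the call in 4 of 15 and 9 of 14 alternatives. Per1 had 33.2, 55.2, 40.0 and 40.5 CPM at 21% and 66.5, 76.7, 61.5 and 68.0 CPM at 6%, with no overlap but an adjusted p of 0.064 (0.69 ± 0.23). Per2 (0.74 ± 0.32, adjusted p = 0.17), Nr1d1 (0.84 ± 0.30, adjusted p = 0.088), Arntl (-0.84 ± 0.29, adjusted p = 0.069), Tef (-0.19 ± 0.24) and Hlf (-0.33 ± 0.24) did not pass the test. Clock, the partner of Arntl, had at most 2.84 CPM in any of the 8 libraries and was below the count filter.

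Genes induced by glucocorticoids were called in both directions. Of 22 measured, 11 rose and 2 fell (median 0.72). Besides Igfbp1, Mt1, Mt2 and Gadd45b, the rises included Sgk1, a kinase that regulates ion transport, from 39.2, 44.5, 28.5 and 49.4 CPM to 103, 137, 119 and 124 CPM (1.59 ± 0.16, adjusted p = 1.0e-06). The falls were Tsc22d3, also called Gilz, and Fkbp5, both common markers of glucocorticoid receptor activity. Tsc22d3 was 170, 184, 160 and 220 CPM at 21% oxygen and 66.5, 62.9, 76.1 and 92.3 CPM at 6% (-1.30 ± 0.17, adjusted p = 2.0e-05). Fkbp5 was 128, 127, 166 and 155 CPM and then 69.9, 88.4, 96.0 and 75.6 CPM (-0.81 ± 0.18, adjusted p = 0.0049); the latter was singled out after its values were seen. For both, every 6% mouse was below every control.

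Of the cell cycle list, 13 of 20 genes were measured, 6 rose and 0 fell (median 0.92). Mcm3, a subunit of the replicative helicase, was 6.53, 5.18, 5.41 and 6.06 CPM at 21% oxygen and 16.6, 15.0, 14.6 and 17.2 CPM at 6% (1.45 ± 0.21, adjusted p = 8.8e-05). Mcm2 (1.54 ± 0.33, adjusted p = 0.0036), Mcm6 (1.23 ± 0.29, adjusted p = 0.0089), Ccnd1, which encodes cyclin D1 (1.06 ± 0.25, adjusted p = 0.0081), and Pcna, the sliding clamp of DNA replication (0.68 ± 0.16, adjusted p = 0.010), also rose. The sixth was Cdkn1a, which encodes the cell cycle inhibitor p21 (0.76 ± 0.18, adjusted p = 0.0089). The other 7 measured genes were not called. Members of the list that were not measured were under the filter on low counts or had no counts listed.

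The response differed from that at CT4-8, the subjective day, in 138 of 8507 genes (1.62%), tested as an interaction in the same fit: for 70 the log2 response was higher at CT16-20 (0.823%) and for 68 lower (0.799%). At an unadjusted p under 0.05 there were 1275. WT liver at CT4-8 itself had 1001 called genes (11.8%), 485 up (5.70%) and 516 down (6.07%), and shared with CT16-20 202 rises (45.0% of the CT16-20 rises and 41.6% of those at CT4-8) and 120 falls (of 387 at CT16-20, and 23.3% of those at CT4-8). Of the 138 differing genes, 47 were called at CT16-20 only, 57 at CT4-8 only, 29 at both and 5 at neither. The count depended on single libraries: it was 68 without CT16-20 at 21% replicate b, 73 without CT16-20 at 6% replicate a, 74 without CT16-20 at 6% replicate d, 85, 73 and 73 without CT4-8 at 6% replicates b, c and d, and 197 without CT4-8 at 21% replicate a. The 8 genes named by smallest adjusted p, which follow, were called in every alternative run.

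Cdkn1a showed the most certain difference. At CT4-8 it was 12.5, 24.3, 17.1 and 18.7 CPM at 21% oxygen and 387, 234, 269 and 283 CPM at 6%, whereas at CT16-20 it was already 117, 165, 190 and 136 CPM at 21% and 239, 276, 274 and 245 CPM at 6%. The response was therefore 3.99 ± 0.21 at CT4-8 and 0.76 ± 0.18 at CT16-20, and the difference -3.23 ± 0.27 on the log2 scale (adjusted p = 4.3e-07). The air levels of the 2 times did not overlap, while the 6% levels did. Between times, 311 of 8507 genes were called in air (3.66%) and 105 at 6% oxygen (1.23%). The same shape was seen for Tat, the tyrosine aminotransferase of hepatocytes. Tat was 675, 1305, 1120 and 1130 CPM at CT4-8 in air and 3760, 4686, 4795 and 4873 CPM at CT16-20 in air, against 7280, 6388, 6745 and 6162 CPM and 5788, 6625, 7380 and 6344 CPM at 6% oxygen (difference -2.12 ± 0.23, adjusted p = 2.9e-05). Its own rise at CT16-20 (0.53 ± 0.16, adjusted p = 0.043) lost the call in 9 of 15 alternatives. Igfbp1 was 69.0 to 123 CPM in air at CT4-8 and 2733 to 4839 CPM at 6%, so that its response was 5.28 ± 0.30 there against 2.72 ± 0.27 at CT16-20 (difference -2.56 ± 0.37, adjusted p = 0.00092).

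For 4 of the 8, low oxygen raised the gene at CT4-8 and not at CT16-20. Slc45a3, a sugar transporter family member, rose at CT4-8 (1.45 ± 0.19, adjusted p = 1.2e-05) and fell at CT16-20 from 78.9, 101, 98.9 and 94.6 CPM to 64.5, 36.9, 62.4 and 63.9 CPM (-0.72 ± 0.17, adjusted p = 0.010; difference -2.17 ± 0.25, adjusted p = 5.1e-05). Ppp1r3c rose at CT4-8 (1.91 ± 0.25) from 10.4 to 18.7 CPM in air to 51.0 to 59.9 CPM, and fell at CT16-20 from 38.4 to 58.8 CPM in air to 13.8 to 39.5 CPM (difference -2.63 ± 0.34, adjusted p = 0.00013). Its relative Ppp1r3b rose at CT4-8 (1.34 ± 0.19, adjusted p = 4.7e-05) and had -0.40 ± 0.17 at CT16-20, which was not called (difference -1.74 ± 0.25, adjusted p = 0.00081). Plin5, a lipid droplet protein, rose at CT4-8 (1.68 ± 0.16, adjusted p = 1.8e-07) and had -0.09 ± 0.16 at CT16-20 (difference -1.77 ± 0.22, adjusted p = 0.00013). Fam20c, a kinase of secreted proteins, was the only 1 of the 8 with the higher response at CT16-20: it rose there from 43.5, 31.5, 31.03 and 31.7 CPM to 57.0, 60.4, 60.7 and 74.6 CPM and fell at CT4-8 (0.88 ± 0.17 and -0.74 ± 0.17; difference 1.62 ± 0.24, adjusted p = 0.00081).

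Among lists, the glucocorticoid genes held 9 of the 68 lower responses, in 22 measured members, with a median difference of -1.12 against 0.0094 over all genes. Tsc22d3 was 69.0, 74.6, 47.8 and 63.8 CPM in air at CT4-8, far below its CT16-20 air level, and 51.4 to 74.6 CPM at 6% (difference -1.37 ± 0.24, adjusted p = 0.0043). Fkbp5 rose at CT4-8 (0.64 ± 0.18, adjusted p = 0.022) and fell at CT16-20 (difference -1.45 ± 0.25, adjusted p = 0.0043). Of 11 measured clock output genes 1 differed, Dbp, with a median difference of 0.15 over the list. Dbp was 266, 224, 239 and 200 CPM in air at CT4-8, near its daily high, and 15.2, 97.3, 53.7 and 84.1 CPM at 6%, so it fell there (-1.88 ± 0.36) and rose at CT16-20 (difference 3.94 ± 0.56, adjusted p = 0.0023). Arntl, which was 1.35 to 5.35 CPM in air at CT4-8 and 19.0 to 29.3 CPM at CT16-20, rose at CT4-8 (1.23 ± 0.39, adjusted p = 0.041) and differed by -2.07 ± 0.48 (adjusted p = 0.030, lost in 7 of 21 alternatives). Its estimate at CT16-20 was not called (-0.84 ± 0.29, adjusted p = 0.069). Of 24 measured genes of fatty acid and triglyceride synthesis, the response was higher at CT16-20 for 2 and lower for 1, and of 23 cholesterol genes it was higher for 3 and lower for 0. The lower one was Lpin1, which encodes a phosphatidate phosphatase, with 1.37 at CT4-8 and a difference of -1.80 (adjusted p = 0.036, lost in 10 of 21 alternatives), named after its values were seen. Those with higher responses included Srebf1 at 2.44 against 1.05 ± 0.18 (difference 1.39 ± 0.26, adjusted p = 0.0061), Fads2 at 0.77 against -0.80 (1.57 ± 0.29, adjusted p = 0.0066) and Mvd at 2.10 against -0.43 (2.54 ± 0.56, adjusted p = 0.029). The difference of Mvd lost the call in 9 of 21 alternatives. Of 13 measured cell cycle genes, 3 had higher responses and 1, Cdkn1a, a lower one. The 3 were Ccnd1 (2.01 ± 0.35, adjusted p = 0.0043), Mcm2 (2.11 ± 0.53, adjusted p = 0.043) and Mcm3 (1.48 ± 0.31, adjusted p = 0.016), of which that of Mcm2 lost the call in 15 of 21. None of the 24 HIF targets differed upward and 3 differed downward. Hilpda (0.81 ± 0.44), Gdf15 (-0.11 ± 0.31) and Vegfa (0.28 ± 0.23) did not pass the test of difference.

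**Figure D4:**
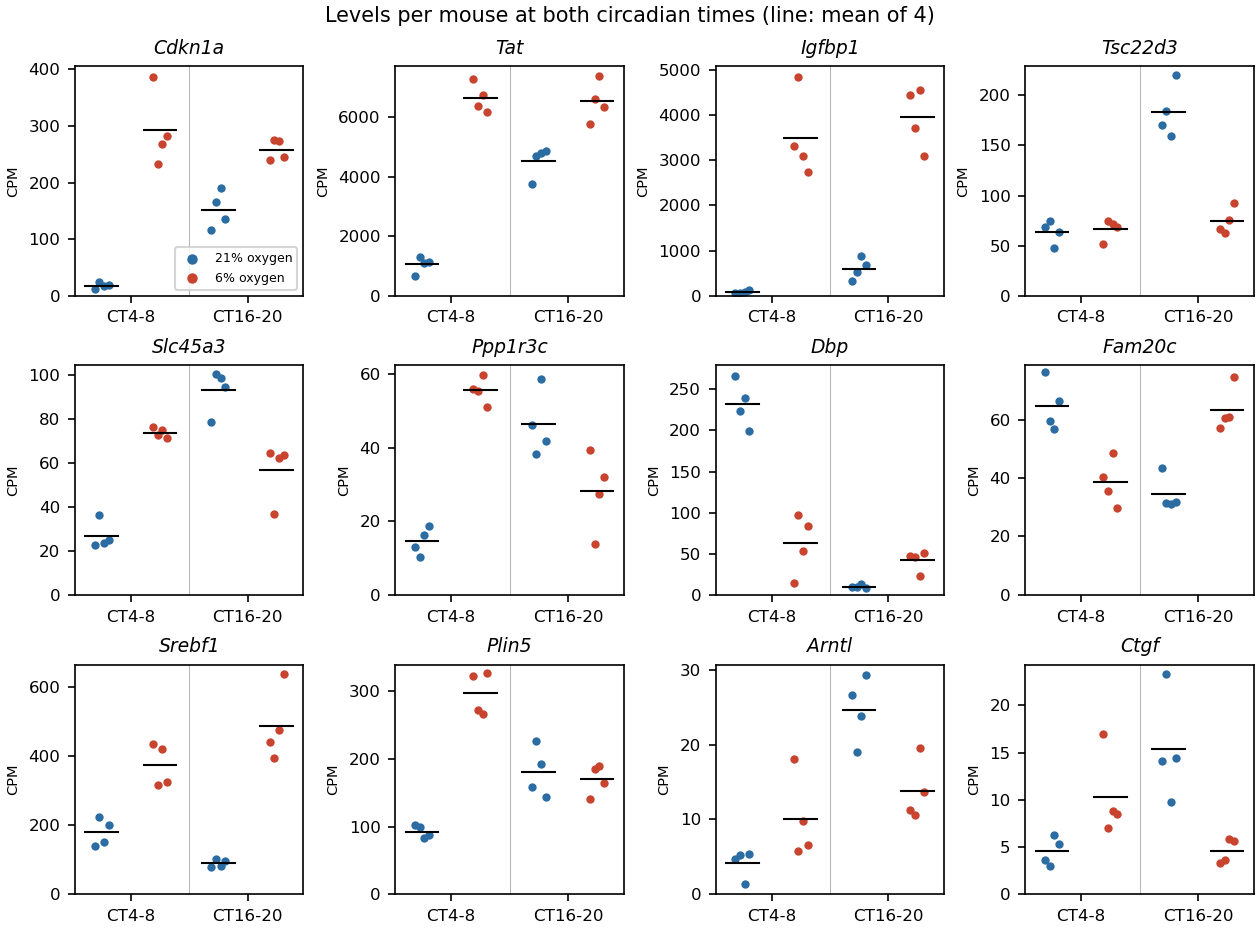
CPM per mouse for 12 genes at CT4-8 and CT16-20, with 21% oxygen in blue, 6% oxygen in red and the mean of 4 mice as a line; each vertical axis starts at 0. For Cdkn1a, Tat and Igfbp1 the air level is higher at CT16-20 than at CT4-8 and the 6% levels overlap between times, and for Dbp low oxygen lowers the level at CT4-8 and raises it at CT16-20. Arntl rose at CT4-8 and was not called at CT16-20.

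In KO liver, which lacks the clock repressors Per1 and Per2, low oxygen changed 427 of 9011 genes at CT16-20 (4.74%), of which 2.37% of all genes rose and 2.36% fell. The deletion could not be checked with certainty from counts, since a tag outside the deleted part is still counted: Per1 was 24.0 to 36.5 CPM and Per2 4.65 to 11.5 CPM in KO air libraries, against 33.1 to 55.3 and 10.4 to 17.3 CPM in WT. The KO and WT tables shared 125 called rises (27.8% of the WT and 59.5% of the KO rises) and 104 called falls (26.9% and 50.7%). Depth differed by oxygen in KO, with 1443279 to 2020619 counts per library at 21% and 2796286 to 3768161 at 6%, and its part in the KO counts was not tested. The response differed between genotypes in 4 of 9011 genes (0.0444%), with 906 at an unadjusted p under 0.05 in edgeR and 36 called in DESeq2. The count was 2 without WT 21% replicate c, 8 without WT 6% replicate a, 10 without KO 21% replicate a, 10 without KO 6% replicate c and 18 without the CT4-8 WT library that stood apart.

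Gnat1, a transducin subunit best known from rod photoreceptors, was 2.18, 1.29, 2.16 and 2.33 CPM in WT air and 16.6, 18.3, 14.1 and 12.2 CPM at 6%. In KO it was 8.64 to 14.0 CPM in air and 11.7 to 14.7 CPM at 6%, so the WT response of 2.92 ± 0.29 stood beside 0.12 ± 0.25 in KO (difference 2.79 ± 0.41, adjusted p = 0.00049). Mapk15, an atypical MAP kinase, fell in WT from 47.9, 48.8, 33.2 and 48.9 CPM to 16.2, 10.5, 24.9 and 27.9 CPM and rose in KO from 11.2 to 14.8 CPM to 23.9 to 32.6 CPM (difference -2.26 ± 0.38, adjusted p = 0.0037). Both genes had air levels that differed between the genotypes and 6% levels that overlapped between them. Nfil3, a repressor of clock output genes, rose in both, by 0.67 in WT and by 2.26 ± 0.22 in KO (difference -1.59 ± 0.29, adjusted p = 0.012, lost in 3 alternatives, of which 2 left out a library, WT 21% replicate c or KO 6% replicate a). Mcm3 rose in WT and had -0.23 ± 0.23 in KO (difference 1.68 ± 0.32, adjusted p = 0.015). This call was lost without WT 21% replicate b, WT 21% replicate c or KO 6% replicate b, with adjusted p up to 0.14, and the gene was named after its values were seen. Mt2 had a response of -0.24 ± 0.62 in KO, where air libraries already ranged from 1180 to 8737 CPM, and the difference of 3.59 ± 0.89 did not pass the test (adjusted p = 0.12). Cish likewise had 0.08 ± 0.47 in KO (difference -3.08 ± 0.70, adjusted p = 0.10). For Hilpda (4.56 ± 0.31 in KO), Vegfa (1.47 ± 0.17), Srebf1 (2.26 ± 0.23) and Rsrp1 (-2.30 ± 0.19), the difference between genotypes did not pass the test (adjusted p from 0.77 to 0.91). The counts came from separate tables, and levels are set side by side across them on that footing.

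Under a light-dark cycle at ZT16-20, low oxygen changed 1845 of 9499 genes in WT liver (19.4%, with 9.71% up and 9.72% down), in libraries of 3447056 to 6744476 counts. Of the CT16-20 rises 332 were also called there (73.9%, and 37.5% of the rises at ZT16-20), and of the falls 262 (67.7% and 31.1%). The difference between the responses was called for 0 of 9499 genes in edgeR (0%), with 663 at an unadjusted p under 0.05, 16 called in DESeq2 and 4 called in edgeR without the CT4-8 library that stood apart. The smallest adjusted p, 0.063, was that of Tsc22d3 and Gjb2. Tsc22d3 fell in constant darkness and had -0.17 ± 0.15 under light-dark, a difference of -1.12 ± 0.22 that passed the threshold in 9 of 22 alternatives (adjusted p from 0.0013 to 0.17). Gjb2, which encodes a gap junction protein, had a difference of 0.84 ± 0.17. Ciart rose by 5.39 ± 0.46 under light-dark against 2.93 in constant darkness, a difference of -2.43 ± 0.69 (adjusted p = 0.30). Hilpda (5.27 ± 0.33), Gdf15 (4.56 ± 0.36), Jun (3.06 ± 0.40) and Srebf1 (3.29 ± 0.22) rose and Foxa2 (-3.03 ± 0.28) and Rsrp1 (-2.66 ± 0.15) fell at ZT16-20, each within 0.90 of its log2 fold change at CT16-20.

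**Figure D5:**
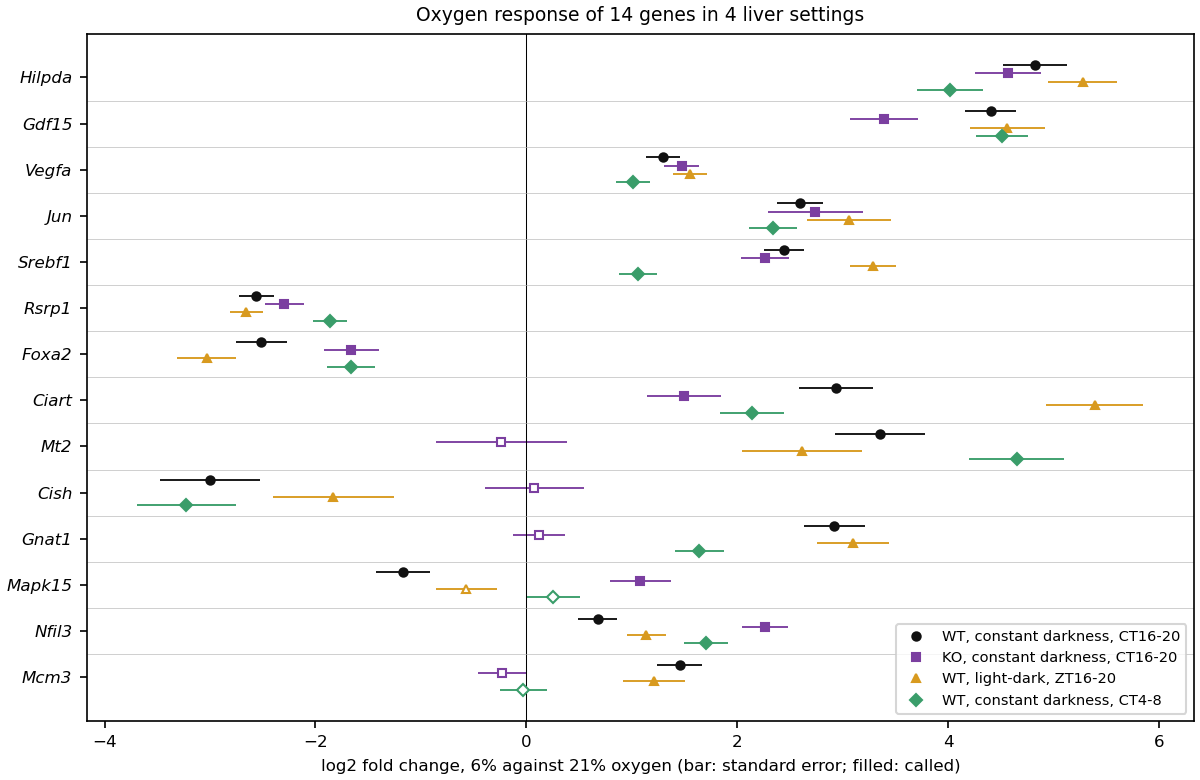
Log2 fold change at 6% against 21% oxygen of 14 genes in WT and KO liver at CT16-20, WT liver at ZT16-20 under light-dark and WT liver at CT4-8, with bars for the standard error and filled symbols for called genes. Hilpda, Gdf15, Vegfa, Jun and Srebf1 lie above 0 in all 4 settings, while Gnat1 and Mcm3 lie near 0 in KO and Mapk15 lies on opposite sides of 0 in WT and KO at CT16-20.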

How the data were processed

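Messenger RNA levels were measured by sequencing in liver of mice under 6% or 21% oxygen. Per the submitters' processing notes, reads were handled with bcl2fastq, cutadapt, STAR and HTSeq on mm10. The deposited values are raw counts per gene symbol, made by the authors without normalization, and their strand setting and annotation were not given in the sources used here. Per the labels' protocols, cDNA was pooled with barcodes and amplified linearly by transcription, and input was evened by Actb. Amplified counts are not independent molecules, so precision rests on the mice.

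All 16 WT libraries in constant darkness were fitted with edgeR 4.0.16 in R 4.3.3 (TMM scaling, filterByExpr with a minimum count of 10 and a minimum total of 15, robust quasi-likelihood test), with Benjamini-Hochberg adjustment over all genes at 0.05. The table listed 10811 genes, of which 8507 were tested. Genotype and light regime were compared as interactions in joint fits of 31 and 32 libraries. Library measures were compared by exact permutation tests. The fits were checked on simulated data. Alternatives were RLE scaling, no filter, DESeq2 1.42.0, a replicate block, only the compared libraries, thinned counts, each library left out, and, chosen after seeing the data, 1 CT4-8 library left out.

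Genes were named by a rule: up to 12 rises and 12 falls by fold change with a mean of at least 10 CPM and no overlap, up to 8 per interaction and 6 per list by p, and a set of core clock, HIF and liver genes. The members and lists were chosen with earlier results of these data known. Replicate letters were not taken as pairs: deviations of same-letter libraries correlated at -0.0051 to 0.10, with 1 of 4 over 0.1. No 2 libraries were duplicates. Some genes are not reported here, so the genes named do not exhaust the counts of a list.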

Additional observations from a re-analysis of the deposited data

Results flagged for a closer look

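In 15 of 228 groups of 4 mice checked over 114 genes, 1 library lay apart from the other 3 by Dixon's ratio at the 95% level. Chance does so in about 5% of groups. At 21% oxygen these were replicate a of Cyp4a10 (553.59 CPM, the others 788 to 796), Fam20c (43.504) and Tat (3759.8), replicate b of Gnat1 (1.2948), replicate c of Fga (419.94) and Mapk15 (33.191), and replicate d of Malat1 (5.1242). At 6% oxygen they were replicate a of Insig1 (115.21 CPM), replicate b of Cyp4a14 (195.08, the others 49.2 to 67.0), Sds (1387.5), Slc45a3 (36.907) and Srsf3 (17.845), and replicate c of Gadd45a (17.879, the others 91.7 to 101), Nr1d2 (2.0789) and Pcna (43.242).

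The response to low oxygen differed between CT16-20 and CT4-8 by edgeR's interaction test for 26 of the genes described. On the log2 scale the CT16-20 response was lower for Cdkn1a (-3.231), Cyp4a14 (-3.649), Ppp1r3c (-2.631), Igfbp1 (-2.562), Slc45a3 (-2.166), Tat (-2.122), Arntl (-2.069), Lpin1 (-1.801), Plin5 (-1.769), Ppp1r3b (-1.74), Angptl4 (-1.472), Fkbp5 (-1.45), Mapk15 (-1.42), Gsta2 (-1.387), Tsc22d3 (-1.37), Slc30a10 (-1.19) and Slc38a2 (-1.019). It was higher for Dbp (3.938), Gadd45a (2.892), Mvd (2.539), Mcm2 (2.11), Ccnd1 (2.007), Fam20c (1.624), Fads2 (1.569), Mcm3 (1.483) and Srebf1 (1.385). Of the 26, 17 kept the call in every alternative run. Cyp4a14, Gadd45a, Gsta2, Mapk15 and Lpin1 lost it in 16, 16, 15, 12 and 10 of 21.

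Between WT and KO at CT16-20 the response differed for Gnat1 (2.792), Mcm3 (1.677), Nfil3 (-1.594) and Mapk15 (-2.261), and the calls of Gnat1 and Mapk15 held in every alternative run.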

How the results depend on the processing

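Of 130 called genes among 283 whose CT16-20 response was recomputed, 96 kept the call in every alternative and 0 reversed. The count of 836 was 833 with RLE scaling, 885 without the filter, 846 in DESeq2, 1036 with only the compared libraries, 652 with thinned counts and 585 to 710 with 1 library left out. Without the CT4-8 21% replicate a, it was 1358 (694 higher, 664 lower). The difference from CT4-8 (138) was 202 in DESeq2, with 103 lower, and with 1 library left out 68 to 197 (higher 29 to 78, lower 39 to 119). The difference from KO (4) was 36 in DESeq2 (27 higher, 9 lower), 7 with only the compared libraries (5 higher), 18 without the CT4-8 library (11 higher, 7 lower) and 2 to 10 with 1 library left out (higher 1 to 7, lower 1 to 4). The difference from light-dark (0) was 16 in DESeq2 (5 higher, 11 lower), 4 without the CT4-8 library (2 higher, 2 lower) and 0 to 7 with 1 left out (higher 0 to 2, lower 0 to 5). With the replicate letter as a block, the counts were 740, 104, 5 (4 higher, 1 lower) and 0, although the letters do not pair the mice. The cause of these shifts was not tested. Genes at a few CPM carry few counts at 1860734 to 2811220 per library, so small changes in them were not detectable.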
